A study of Mus musculus with 8 samples.

Results

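The sarcomere, the contractile unit of striated muscle, was followed in mouse paws through 49 genes: 10 of slow fibres, 14 of fast fibres, 13 of the Z-disc or M-band, 3 developmental forms and 9 other sarcomere components. Each gene was read from the probe set that carries its symbol alone, and from the one with the highest mean signal where several did. All 49 genes were found, of 19938 genes that the array names in this way, and the tests ran over 28944 probe sets.

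Paws of male DBA/1J mice, 8 to 10 weeks of age when assigned, were excised for RNA and profiled on 8 Affymetrix Mouse Gene 1.0 ST arrays. The CIA+MLIF and CIA groups had collagen-induced arthritis (CIA), started by injecting complete Freund adjuvant with 150 µg of type II collagen from chicken into the skin at the tail base. The adjuvant+MLIF and adjuvant groups received the same adjuvant with no collagen, and mice of all 4 groups were boosted in incomplete adjuvant 3 weeks later. The CIA+MLIF and adjuvant+MLIF groups also received MLIF, a pentapeptide from Entamoeba histolytica, by weekly application to the nose, which for CIA+MLIF began in the week before the collagen. Each group of 8 mice is represented by 2 arrays. Whether an array holds RNA of 1 mouse or of a pool is not stated, so p-values measure the spread between arrays. Sampling 4 weeks after the booster is given for each sample, while the text on the series as a whole puts it before the booster.

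Muscle contracts when myosin heads on thick filaments pull on actin in thin filaments. Calcium binds troponin C, and the troponin complex then moves tropomyosin aside to free the actin. Slow and fast fibres build this machine from partner genes, such as Myh7 in slow fibres and Myh1, Myh2 and Myh4 in fast fibres. The Z-disc anchors thin filaments and the M-band holds thick filaments in register. A paw holds small muscles beside bone, tendon, joint and skin, so the signals come from a mixture. Fewer muscle fibres, less RNA per fibre and a larger share of RNA from other tissues cannot be told apart in it.

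The proximal promoters of 2 partner pairs are shown because these pairs open the comparison of slow with fast genes: troponin C, the calcium sensor, and the myosin heavy chains Myh7 and Myh4. Each sequence is the 250 bases before a transcription start in RefSeq (GRCm38.p6), written 5′ to 3′ on the strand of the gene. Capitals mark matches, on either strand, to the E-box CANNTG, bound by MyoD-family factors, to MCAT (CATTCC), bound by TEAD factors, to TATAAA, and to the motifs MEF2 and CArG, given here by name. The CArG box is bound by serum response factor. In Myh4 the MEF2 match overlaps a TATAAA match. Myh7 has 2 listed starts, whose windows overlap.
Tnnc1 (slow, chr14:31208062-31208311, plus strand): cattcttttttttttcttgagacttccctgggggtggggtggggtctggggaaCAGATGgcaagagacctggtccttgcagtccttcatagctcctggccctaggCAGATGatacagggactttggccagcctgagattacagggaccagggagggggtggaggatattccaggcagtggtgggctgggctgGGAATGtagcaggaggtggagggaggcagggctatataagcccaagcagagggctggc
Tnnc2 (fast, chr2:164779735-164779984, minus strand): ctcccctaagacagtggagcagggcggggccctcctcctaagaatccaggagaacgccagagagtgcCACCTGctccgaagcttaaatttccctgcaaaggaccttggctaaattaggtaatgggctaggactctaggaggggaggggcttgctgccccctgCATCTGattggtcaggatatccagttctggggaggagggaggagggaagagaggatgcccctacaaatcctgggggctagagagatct
Myh7 (slow, chr14:54994627-54994876, minus strand): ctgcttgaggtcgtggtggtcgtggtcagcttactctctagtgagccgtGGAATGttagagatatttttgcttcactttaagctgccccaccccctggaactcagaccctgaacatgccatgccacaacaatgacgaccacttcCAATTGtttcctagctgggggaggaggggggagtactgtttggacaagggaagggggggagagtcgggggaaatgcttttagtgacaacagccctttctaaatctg
Myh7 (slow, other start, chr14:54994550-54994799, minus strand): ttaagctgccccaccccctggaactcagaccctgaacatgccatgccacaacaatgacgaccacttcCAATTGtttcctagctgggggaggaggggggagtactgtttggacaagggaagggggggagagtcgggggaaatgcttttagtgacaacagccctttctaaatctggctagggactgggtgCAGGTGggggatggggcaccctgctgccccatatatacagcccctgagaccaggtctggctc
Myh4 (fast, chr11:67237562-67237811, plus strand): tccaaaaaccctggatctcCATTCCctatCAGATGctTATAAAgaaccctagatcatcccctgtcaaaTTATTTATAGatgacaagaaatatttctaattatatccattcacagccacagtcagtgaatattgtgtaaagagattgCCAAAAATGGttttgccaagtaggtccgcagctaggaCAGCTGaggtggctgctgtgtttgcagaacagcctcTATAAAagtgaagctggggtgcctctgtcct

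RefSeq promoters were found for 35 of the 49 genes. In these windows an E-box match was present in 31 of 35 (88.6%), beside 69.3% of 27025 genes with a promoter. MEF2 matches were found in 8 of 35 (22.9%, beside 3.42% of all genes), CArG matches in 6 (17.1%, beside 1.62%), MCAT matches in 11 (31.4%, beside 14.4%) and TATAAA in 10 (28.6%, beside 14.3%). By class, E-box matches were found in 10 of 10 slow, 6 of 8 fast and 6 of 7 Z-disc or M-band promoters, and MCAT matches in 3, 5 and 0 of them. These matches describe letters in the windows and were not tested against the signals. The fast and developmental myosin heavy chain genes lie side by side on chromosome 11 in the order Myh3, Myh2, Myh1, Myh4 and Myh8, whereas Myh7 lies on chromosome 14 beside its cardiac partner Myh6.

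The tested probe sets had a median log2 signal of 6.66 on CIA replicate 1 and between 7.07 and 7.10 elsewhere. Taken over every probe set, the median log2 change was -0.25 for CIA against adjuvant and 0.24 for CIA+MLIF against CIA, the level against which the changes below are to be read. Replicates of adjuvant+MLIF lay closer together (SD of their difference 0.0936) than those of the other groups (0.207 to 0.324). The labels do not say whether the adjuvant+MLIF arrays come from separate mice. If they are technical replicates, the residual spread and the p-values of the fit may be too small. Precision is limited by the number of arrays, with a median standard error of 0.18 for a log2 change between groups. All 49 genes lay above the median of the entries taken as array controls on all 8 arrays, as did the 13 measured genes of a reference list of other skeletal muscle fibre genes (Ckm, Ckmt2, Mb, Des, Dmd, Sgca, Cav3, Eno3, Pgam2, Pygm, Ampd1, Ryr1 and Cacna1s). Skeletal muscle RNA was thus detected in every group.

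Against adjuvant, CIA paws had lower signals for 46 of the 49 sarcomere genes and higher signals for none (limma, adjusted p under 0.05), beside 18.5% of all probe sets called, 14.2% lower and 4.3% higher. The median log2 change was -1.48, and the changes ran from -2.61 for Myl2, the slow regulatory light chain, to 0.00 for Tpm3, a tropomyosin. The slow-fibre genes had a median change of -2.19, the Z-disc or M-band genes -1.80 and the fast-fibre genes -1.27. On 47 of 49 genes both CIA arrays lay below both adjuvant arrays, beside 44.7% of all probe sets. Against CIA, CIA+MLIF paws had higher signals for 45 of the 49 genes and lower signals for none, beside 14.7% of all probe sets called, 11.5% higher and 3.25% lower. On 48 genes both CIA+MLIF arrays lay above both CIA arrays, beside 40.7% of all probe sets. The medians with MLIF were 2.17 for slow, 1.78 for Z-disc or M-band and 1.15 for fast genes. These comparisons share the CIA arrays, so a low or high CIA value moves both, in opposite directions.

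**Figure D1:**
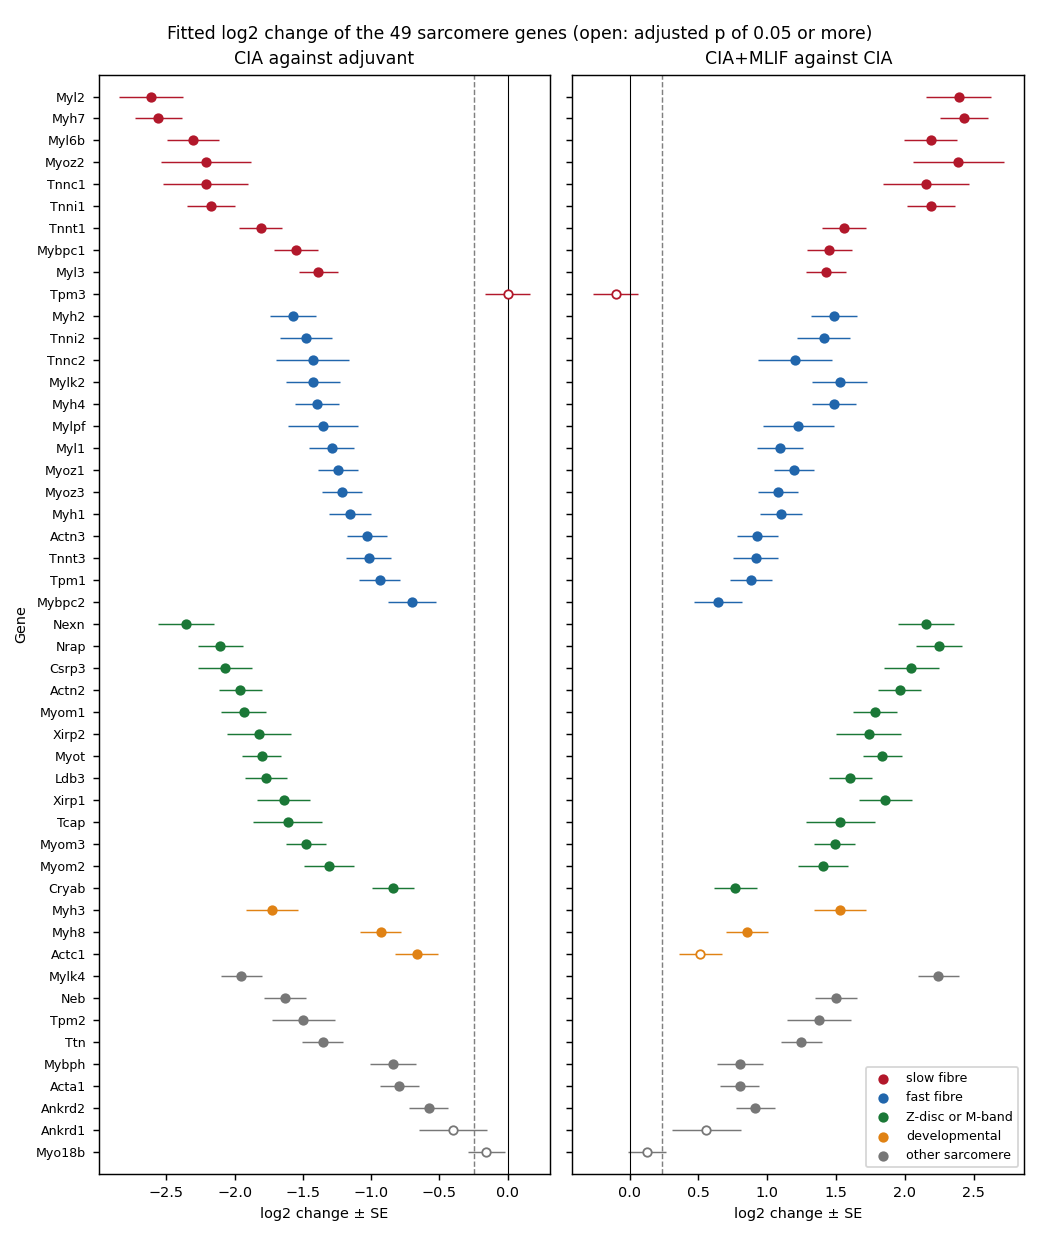
Fitted log2 change ± SE of each of the 49 genes, in rows grouped by class, for CIA against adjuvant (left) and CIA+MLIF against CIA (right), with open symbols for an adjusted p of 0.05 or more and a dashed line at the median of all probe sets. Of the slow genes only Tpm3 sits near 0, and the other slow genes reach from -1.39 to -2.61 on the left, while the fast genes lie between -1.57 and -0.70.

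Among the motor proteins, the slow heavy chain Myh7 had log2 signals of 9.93 and 10.14 in CIA+MLIF, 7.40 and 7.80 in CIA, 10.11 and 10.09 in adjuvant+MLIF and 10.09 and 10.23 in adjuvant. The fast heavy chain Myh4 read 11.88 and 12.04 in CIA+MLIF, 10.31 and 10.65 in CIA, 11.82 and 11.80 in adjuvant+MLIF and 11.88 and 11.87 in adjuvant. For both genes the CIA arrays were the lowest, with no overlap with any other group. In CIA against adjuvant, Myh7 fell by 2.56 (SE 0.17, adjusted p = 1.90e-05) and Myh4 by 1.40 (SE 0.16, adjusted p = 4.36e-04) on the log2 scale. With MLIF, in CIA+MLIF against CIA, Myh7 rose by 2.43 (SE 0.17, adjusted p = 5.75e-05) and Myh4 by 1.48 (SE 0.16, adjusted p = 4.71e-04). The other adult fast heavy chains, Myh2 of type IIA and Myh1 of type IIX fibres, changed by -1.57 and -1.16 in CIA against adjuvant and by 1.48 and 1.10 in CIA+MLIF against CIA, all passing.

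The light chains sit on the neck of the myosin head. Myl2, the regulatory light chain of slow and cardiac muscle, read 11.03 and 11.45 in CIA+MLIF, 8.67 and 9.03 in CIA, 11.61 and 11.62 in adjuvant+MLIF and 11.16 and 11.76 in adjuvant. Its fast partner Mylpf read 11.60 and 12.26 in CIA+MLIF, 10.59 and 10.81 in CIA, 12.42 and 12.39 in adjuvant+MLIF and 11.76 and 12.36 in adjuvant. Both were lowest in CIA, and the adjuvant and CIA+MLIF replicates of Mylpf lay far apart. Myl2 fell by 2.61 (SE 0.24, adjusted p = 9.64e-05) and Mylpf by 1.36 (SE 0.26, adjusted p = 0.00677) in CIA against adjuvant. With MLIF, Myl2 rose by 2.39 (SE 0.24, adjusted p = 2.66e-04) and Mylpf by 1.23 (SE 0.26, adjusted p = 0.0137).

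The essential light chains gave the smallest contrast between partners. Myl3, the slow form, read 8.54 and 8.39 in CIA+MLIF, 7.01 and 7.05 in CIA, 8.55 and 8.53 in adjuvant+MLIF and 8.36 and 8.48 in adjuvant. Myl1, the fast form, read 12.64 and 13.01 in CIA+MLIF, 11.80 and 11.67 in CIA, 12.89 and 12.83 in adjuvant+MLIF and 12.97 and 13.07 in adjuvant. They fell by nearly the same amount in CIA, Myl3 by 1.39 (SE 0.14, adjusted p = 2.16e-04) and Myl1 by 1.29 (SE 0.17, adjusted p = 8.28e-04). The Myl3 signals in CIA lay much nearer than those of Myl1 to the control medians of those arrays (5.88 and 6.44). This leaves the size of the Myl3 fall, and so the contrast of this pair, uncertain. Myl6b, another essential light chain found in slow muscle, read 10.08 and 9.78 in CIA+MLIF, 7.50 and 7.99 in CIA, 9.96 and 9.94 in adjuvant+MLIF and 10.03 and 10.07 in adjuvant. Its fall of 2.30 (SE 0.19, adjusted p = 6.04e-05) was thus nearer to that of Myl2 than to that of Myl3.

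In the troponin complex, the calcium-binding Tnnc1 of slow fibres, whose promoter is printed above, read 11.63 and 12.33 in CIA+MLIF, 9.53 and 10.13 in CIA, 12.57 and 12.54 in adjuvant+MLIF and 11.67 and 12.41 in adjuvant. Tnnc2 of fast fibres read 12.53 and 13.12 in CIA+MLIF, 11.27 and 11.97 in CIA, 13.20 and 13.21 in adjuvant+MLIF and 12.85 and 13.25 in adjuvant. Replicates of both genes lay far apart in every group but adjuvant+MLIF, and the CIA arrays were still below all others. Tnnc1 fell by 2.21 (SE 0.31, adjusted p = 0.00135) and Tnnc2 by 1.43 (SE 0.27, adjusted p = 0.00671) in CIA against adjuvant.

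The inhibitory subunits repeated this order. Tnni1 of slow fibres read 9.76 and 10.11 in CIA+MLIF, 7.64 and 7.84 in CIA, 10.18 and 10.17 in adjuvant+MLIF and 9.77 and 10.06 in adjuvant. Tnni2 of fast fibres read 12.04 and 12.36 in CIA+MLIF, 10.61 and 10.97 in CIA, 12.45 and 12.44 in adjuvant+MLIF and 12.12 and 12.42 in adjuvant. Both fell in CIA, Tnni1 by 2.17 (SE 0.18, adjusted p = 5.61e-05) and Tnni2 by 1.48 (SE 0.19, adjusted p = 8.55e-04). Among the subunits that bind tropomyosin, Tnnt1 of slow fibres read 10.70 and 10.80 in CIA+MLIF, 9.04 and 9.34 in CIA, 10.99 and 10.98 in adjuvant+MLIF and 10.93 and 11.07 in adjuvant. Tnnt3 of fast fibres read 12.94 and 13.18 in CIA+MLIF, 12.02 and 12.27 in CIA, 13.21 and 13.23 in adjuvant+MLIF and 13.06 and 13.27 in adjuvant. Tnnt1 fell by 1.81 (SE 0.16, adjusted p = 8.03e-05) and Tnnt3 by 1.02 (SE 0.17, adjusted p = 0.00296). The 6 troponin genes rose in CIA+MLIF against CIA, the slow forms by 2.15 (Tnnc1), 2.19 (Tnni1) and 1.56 (Tnnt1) and the fast forms by 1.20 (Tnnc2), 1.41 (Tnni2) and 0.91 (Tnnt3).

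Myosin-binding protein C and the calsarcins, which tie calcineurin to the Z-disc, complete the pairs with lower slow partners. Mybpc1 of slow fibres read 12.45 and 12.77 in CIA+MLIF, 11.08 and 11.23 in CIA, 12.68 and 12.65 in adjuvant+MLIF and 12.64 and 12.78 in adjuvant. Mybpc2 of fast fibres read 9.44 and 9.79 in CIA+MLIF, 8.93 and 9.02 in CIA, 9.64 and 9.68 in adjuvant+MLIF and 9.53 and 9.82 in adjuvant. Mybpc1 fell by 1.55 (SE 0.16, adjusted p = 2.50e-04), while Mybpc2 fell by 0.70 (SE 0.17, adjusted p = 0.0245), the least of the fast genes. Myoz2, the slow calsarcin, read 9.75 and 10.10 in CIA+MLIF, 6.95 and 8.13 in CIA, 10.25 and 10.26 in adjuvant+MLIF and 9.58 and 9.92 in adjuvant. Myoz1, a fast calsarcin, read 11.17 and 11.36 in CIA+MLIF, 10.07 and 10.07 in CIA, 11.31 and 11.34 in adjuvant+MLIF and 11.23 and 11.39 in adjuvant. The CIA arrays of Myoz2 lay far apart, both below all other arrays, and its fall of 2.21 (SE 0.33, adjusted p = 0.00185) stood beside one of 1.24 (SE 0.15, adjusted p = 5.13e-04) for Myoz1. With MLIF, Mybpc1 rose by 1.45, Mybpc2 by 0.64 (adjusted p = 0.0399), Myoz2 by 2.39 and Myoz1 by 1.20.

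With Tpm3 read from its brightest probe set, the tropomyosins went against the other pairs. Tpm3, which encodes the slow muscle form and also cytoskeletal forms made in many cells, read 11.36 and 11.57 in CIA+MLIF, 11.41 and 11.73 in CIA, 11.66 and 11.66 in adjuvant+MLIF and 11.54 and 11.60 in adjuvant. Tpm1, the fast form in this comparison, read 13.05 and 13.15 in CIA+MLIF, 12.10 and 12.35 in CIA, 13.20 and 13.17 in adjuvant+MLIF and 13.12 and 13.21 in adjuvant. The CIA arrays of Tpm3 lay on both sides of the adjuvant arrays (adjusted p = 0.998), and those of Tpm1 lay below all others, a fall of 0.94 (SE 0.15, adjusted p = 0.00284). The result for Tpm3 depended on the probe set. RefSeq places Tpm3 on chromosome 3, but its brightest probe set (10416940) is numbered among those of genes on chromosome 14. It stands between the probe sets of Tnnc1 (10413726) and Myoz1 (10417933). What this brightest probe set binds was not tested. Another of the 4 probe sets of Tpm3 (10493633) read 10.51 and 10.71 in CIA+MLIF, 9.20 and 9.10 in CIA, 10.92 and 10.89 in adjuvant+MLIF and 10.51 and 10.85 in adjuvant. By that probe set CIA fell by 1.53 (adjusted p = 2.96e-04) and CIA+MLIF rose over CIA by 1.46 (adjusted p = 5.86e-04), whereas the remaining 2 had -0.46 (adjusted p = 0.0578) and -0.42 (adjusted p = 0.0949) in CIA. That reading was chosen after the values were seen.

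**Figure D2:**
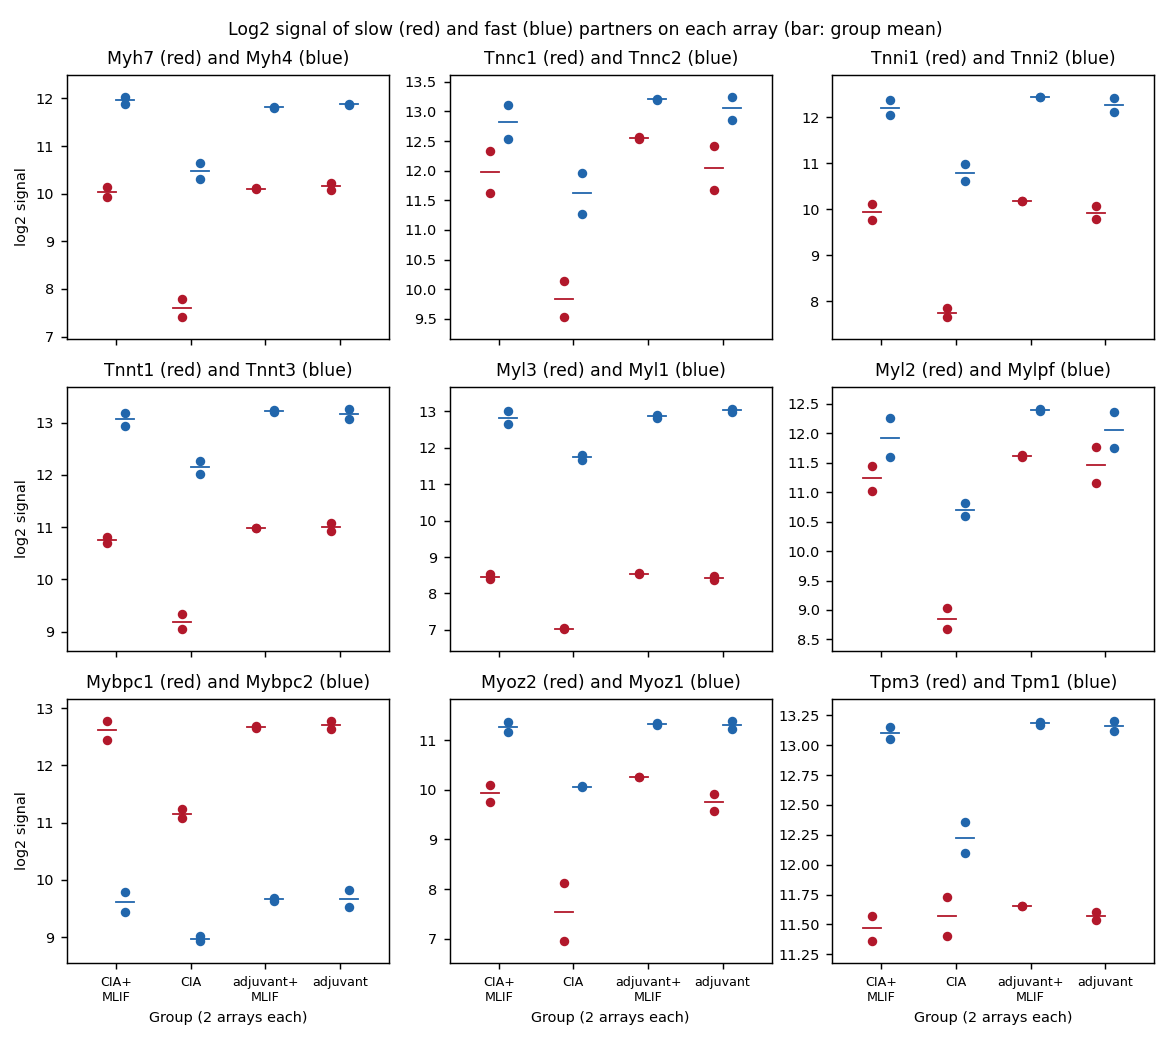
Log2 signal on each array (points) and group means (bars) for 9 pairs of slow (red) and fast (blue) partner genes, with the groups along the x axis. Distances between red and blue depend on the probe sets, and only their change from group to group is to be read: the gap moves in CIA by -1.26 for Myl2 and Mylpf, by -0.10 for Myl3 and Myl1 and by 0.94 for Tpm3 and Tpm1.

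The difference between slow and fast partner on the same array (log2 slow minus log2 fast) removes any shift common to the array. For Myh7 minus Myh4 it was -1.96 and -1.90 in CIA+MLIF, -2.91 and -2.85 in CIA, -1.70 and -1.71 in adjuvant+MLIF and -1.79 and -1.64 in adjuvant. For Tnni1 minus Tnni2 it was -2.28 and -2.26 in CIA+MLIF, -2.97 and -3.13 in CIA, -2.27 and -2.27 in adjuvant+MLIF and -2.34 and -2.36 in adjuvant. In both pairs the CIA arrays stood below the other 6 arrays with no overlap. Over the 9 pairs, both CIA arrays lay below both adjuvant arrays in 8 and below both CIA+MLIF arrays in 7. The 8 include Myl3 and Myl1, where the higher CIA value (-4.617) lay barely below the lower adjuvant value (-4.609). The median change of the difference was -0.79 in CIA against adjuvant, with a range from -1.26 for Myl2 and Mylpf to 0.94 for Tpm3 and Tpm1. It was 0.81 in CIA+MLIF against CIA. Myl3 and Myl1 overlapped between CIA and CIA+MLIF, with -4.11 and -4.63 in CIA+MLIF and -4.79 and -4.62 in CIA. With 2 arrays against 2, an exact two-sided permutation test cannot give a p below 0.333, so these differences carry no test.

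Between the class medians, the change of the slow genes minus that of the fast genes was -0.93 in CIA against adjuvant and 1.02 in CIA+MLIF against CIA. Without CIA replicate 1 the first value was -0.61. On class means, Tpm3 included, the contrast was smaller. The mean of the slow genes minus that of the fast genes was -1.19 and -1.23 in CIA+MLIF, -1.95 and -1.77 in CIA, -1.08 and -1.09 in adjuvant+MLIF and -1.26 and -1.16 in adjuvant. The CIA arrays lay below the other 6. The change of this difference was -0.65 in CIA against adjuvant and 0.65 in CIA+MLIF against CIA, beside an SD of 0.073 between replicates. That SD is pooled over all groups, including the close adjuvant+MLIF arrays, and the CIA replicates lay further apart than those of any other group. The calls of some genes depended on single arrays or on the weighting of arrays. In CIA against adjuvant, Tnnc2 and Mylpf did not pass without adjuvant replicate 2 (log2 change -1.23, adjusted p = 0.0701, and -1.05, adjusted p = 0.0692). Mybpc2 did not pass without either adjuvant array (-0.84 and -0.56) or either adjuvant+MLIF array (-0.70, adjusted p = 0.0587). In CIA+MLIF against CIA, Mybpc2 passed only with all arrays or without CIA replicate 2 (0.46 to 0.82 where it did not). There Tnnc2 and Mylpf did not pass without CIA+MLIF replicate 2 (0.91 and 0.89) or CIA replicate 1 (0.86 and 1.12). Without CIA+MLIF replicate 2, Tnnt3 (0.79, adjusted p = 0.0635), Tpm1 (0.83, adjusted p = 0.0508) and Myh8 (0.73, adjusted p = 0.0566) did not pass either. With array weights, Tnnc2, Mylpf, Mybpc2 and Actc1 did not pass in CIA against adjuvant (adjusted p of 0.0543, 0.119, 0.220 and 0.174). In CIA+MLIF against CIA the weights ended the calls of 8 named genes: Tnnc1 (0.0516), Tnnc2 (0.151), Tnnt3 (0.0983), Myl1 (0.0609), Mylpf (0.217), Mybpc2 (0.330), Tpm1 (0.0660) and Myh8 (0.0953), given as adjusted p. Mybpc2 also did not pass in either comparison with centred arrays or with the compared groups alone, nor Actc1 in CIA against adjuvant with the compared groups alone.

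To set the sarcomere genes against other genes of muscle fibres, the fit was repeated after subtracting the mean log2 signal of the 13 reference fibre genes on each array. These genes are not among the 49. By themselves 13 of 13 fell in CIA against adjuvant (median -1.47), beside 14.2% of all probe sets. In CIA+MLIF against CIA 13 of 13 rose (median 1.39), beside 11.5%. Relative to them, 7 of 10 slow genes fell in CIA and 1, Tpm3 by its brightest probe set, rose. By probe set 10493633 Tpm3 did not pass there (-0.08, limma adjusted p = 0.600). Of the 14 fast genes none fell and 5 rose (Myh1, Tnnt3, Tpm1, Actn3 and Mybpc2), and of the 13 Z-disc or M-band genes 8 fell and 1, Cryab, rose. In this fit 95.1% of all probe sets were called, 1.67% lower and 93.4% higher, since most genes did not fall as the muscle genes did. Myh7 fell relative to the reference by 1.11 (SE 0.11), Myl2 by 1.17 (SE 0.16) and Nexn by 0.91 (SE 0.13), while Mybpc2 rose by 0.75 (SE 0.12). Over all 49 genes, 16 fell, 14 rose and the median was -0.03.

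In CIA+MLIF against CIA, relative to the same reference, 6 of 10 slow genes rose and Tpm3, by its brightest probe set, fell. By probe set 10493633 Tpm3 did not pass (0.03, limma adjusted p = 0.859). Of the fast genes 0 of 14 rose and 5 fell, and 7 of 13 Z-disc or M-band genes rose and Cryab fell. For this comparison 94.6% of all probe sets were called, 1.19% higher and 93.4% lower. The mean of the slow class minus the reference mean was -0.57 and -0.59 in CIA+MLIF, -1.02 and -0.89 in CIA, -0.42 and -0.43 in adjuvant+MLIF and -0.57 and -0.47 in adjuvant. The same difference for the fast class was 0.62 and 0.64 in CIA+MLIF, 0.93 and 0.89 in CIA, 0.66 and 0.66 in adjuvant+MLIF and 0.69 and 0.70 in adjuvant. The CIA arrays were thus the lowest for slow and the highest for fast genes, and neither class overlapped with another group there.

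**Figure D3:**
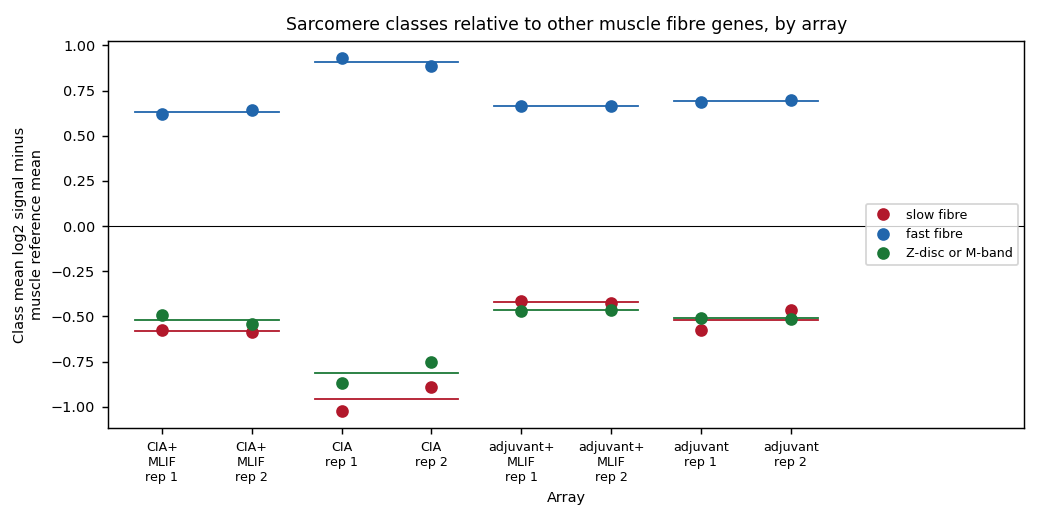
Mean log2 signal of the slow, fast and Z-disc or M-band classes on each array minus the mean of the 13 reference muscle genes (points), with the mean of the 2 replicates as a line. In CIA the slow class lies at -1.02 and -0.89 and the Z-disc or M-band class at -0.87 and -0.75, both below the other 6 arrays, and the fast class at 0.93 and 0.89 lies above them.

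The Z-disc and M-band genes all fell in CIA against adjuvant (13 of 13, log2 changes -2.36 to -0.84), beside 14.2% of all probe sets. All rose in CIA+MLIF against CIA (13 of 13, 0.77 to 2.25), beside 11.5%. Nexn, which encodes the actin-binding nexilin of the Z-disc, read 10.09 and 10.36 in CIA+MLIF, 7.81 and 8.34 in CIA, 10.46 and 10.53 in adjuvant+MLIF and 10.31 and 10.56 in adjuvant. Nrap, an anchor of thin filaments at the ends of myofibrils, read 11.72 and 11.92 in CIA+MLIF, 9.39 and 9.74 in CIA, 11.81 and 11.81 in adjuvant+MLIF and 11.63 and 11.71 in adjuvant. Both were lowest on the CIA arrays, and the other 3 groups lay close together. Nexn fell by 2.36 (SE 0.20, adjusted p = 7.74e-05) and Nrap by 2.10 (SE 0.17, adjusted p = 4.61e-05). With MLIF they rose by 2.15 and 2.25. Next came Csrp3, the muscle LIM protein, with -2.07, and Actn2, the alpha-actinin that cross-links actin at the Z-disc, with -1.96. Actn3, the alpha-actinin of fast fibres, changed by -1.03. Of the M-band proteins, Myom1 changed by -1.93, Myom3 by -1.48 and Myom2 by -1.31. Xirp1 and Xirp2, actin-binding proteins of muscle attachment and repair, changed by -1.64 and -1.82, and Ldb3, Tcap and Myot of the Z-disc by -1.77, -1.61 and -1.80. Cryab, a small heat shock protein that binds at the Z-disc and is also made outside muscle, changed least, by -0.84.

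The developmental forms, which are made in embryonic, neonatal and regenerating fibres, were not higher in CIA. Myh3, the embryonic heavy chain, read 7.69 and 7.79 in CIA+MLIF, 5.94 and 6.50 in CIA, 7.84 and 7.83 in adjuvant+MLIF and 7.92 and 7.98 in adjuvant. Myh8, the perinatal heavy chain, read 7.36 and 7.61 in CIA+MLIF, 6.59 and 6.68 in CIA, 7.57 and 7.59 in adjuvant+MLIF and 7.61 and 7.51 in adjuvant. Actc1, the cardiac alpha-actin of developing muscle, read 8.48 and 8.50 in CIA+MLIF, 7.84 and 8.13 in CIA, 8.51 and 8.60 in adjuvant+MLIF and 8.72 and 8.58 in adjuvant. On all 3 genes the CIA arrays were below every other array. Myh3 fell by 1.73 (SE 0.19, adjusted p = 3.35e-04) and Myh8 by 0.93 (SE 0.15, adjusted p = 0.00288). Actc1 fell by 0.67 (SE 0.16, adjusted p = 0.0189), a call lost without either adjuvant array (-0.60 and -0.74) or either adjuvant+MLIF array (-0.67, adjusted p = 0.0560). With MLIF, Myh3 rose by 1.53 and Myh8 by 0.85, and Actc1 differed by 0.51 (SE 0.16, adjusted p = 0.0587), or by 0.66 (adjusted p = 0.00285) without CIA replicate 2. The Myh3 signals in CIA lay just above the control medians of those arrays (5.88 and 6.44), which leaves the size of its fall uncertain. Relative to the muscle reference, Myh8 (0.52) and Actc1 (0.78) rose in CIA against adjuvant, beside 93.4% of all probe sets called higher. Myh3 did not pass there (-0.28, limma adjusted p = 0.0706).

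Of the 9 other components, 7 fell in CIA against adjuvant, beside 14.2% of all probe sets. In CIA+MLIF against CIA 7 rose, beside 11.5%. Mylk4, a myosin light chain kinase, read 10.25 and 10.43 in CIA+MLIF, 8.00 and 8.19 in CIA, 10.24 and 10.25 in adjuvant+MLIF and 10.07 and 10.03 in adjuvant. The CIA arrays stood well below the others, a fall of 1.95 (SE 0.15, adjusted p = 3.57e-05) and with MLIF a rise of 2.24 (SE 0.15, adjusted p = 3.82e-05). The giant proteins titin (Ttn) and nebulin (Neb), which span the thick and thin filaments, changed by -1.36 and -1.63, and skeletal alpha-actin (Acta1), the main protein of the thin filament, by -0.79. Tpm2, a beta-tropomyosin, changed by -1.50 and Mybph, a relative of myosin-binding protein C, by -0.84. Of the stretch-responsive ankyrin repeat proteins, Ankrd2 changed by -0.58 (adjusted p = 0.0243). Ankrd1 read 7.62 and 7.76 in CIA+MLIF, 6.79 and 7.48 in CIA, 7.95 and 7.94 in adjuvant+MLIF and 7.26 and 7.81 in adjuvant, groups that overlapped between CIA and adjuvant (-0.40, adjusted p = 0.270).

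Myo18b, an unconventional myosin needed to assemble sarcomeres, is measured by 20 probe sets. The brightest of them read 11.25 and 11.30 in CIA+MLIF, 11.15 and 11.15 in CIA, 11.26 and 11.28 in adjuvant+MLIF and 11.35 and 11.27 in adjuvant. It is the probe set that the rule selects, and it did not pass (-0.16, adjusted p = 0.420). The other 19 all fell in CIA against adjuvant, by log2 changes of -2.39 to -0.77 with a median of -1.91, and all rose in CIA+MLIF against CIA, by 0.70 to 2.44. What the brightest probe set binds was not tested.

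**Figure D4:**
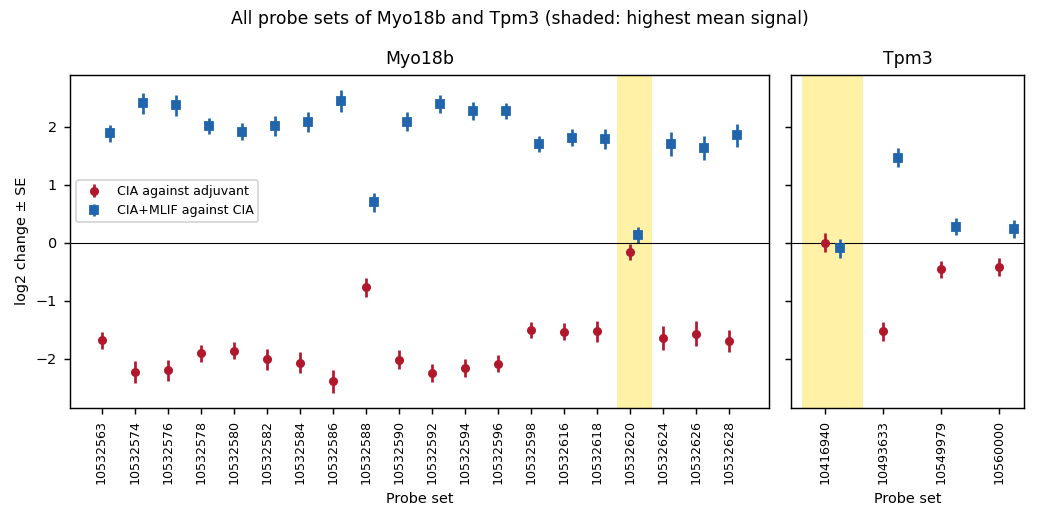
Log2 change ± SE of every probe set of Myo18b (20) and Tpm3 (4), with circles for CIA against adjuvant and squares for CIA+MLIF against CIA, and the brightest probe set of each gene shaded. In both genes the shaded probe set lies near 0, while 19 further probe sets of Myo18b and 1 of Tpm3 passed in both comparisons.

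The classes differed in brightness on the array, so changes were also set beside signal. Across the 49 genes, Spearman's rho between adjuvant signal and the change in CIA was -0.03, and within the slow, fast and Z-disc or M-band classes it was 0.10, 0.07 and -0.41 (10, 14 and 13 genes on the same arrays, which are not independent). Among genes with an adjuvant signal of 9 to 11, the median change was -2.21 for 5 slow genes, -1.85 for 6 Z-disc or M-band genes and -1.22 for 3 fast genes. The slow genes there ran from -2.56 to -1.81 and the fast genes from -1.42 to -0.70. Among those with a signal of 11 to 13, the medians were -1.88 for 4 slow genes, Tpm3 included, -1.82 for 5 Z-disc or M-band genes and -1.38 for 6 fast genes.

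**Figure D5:**
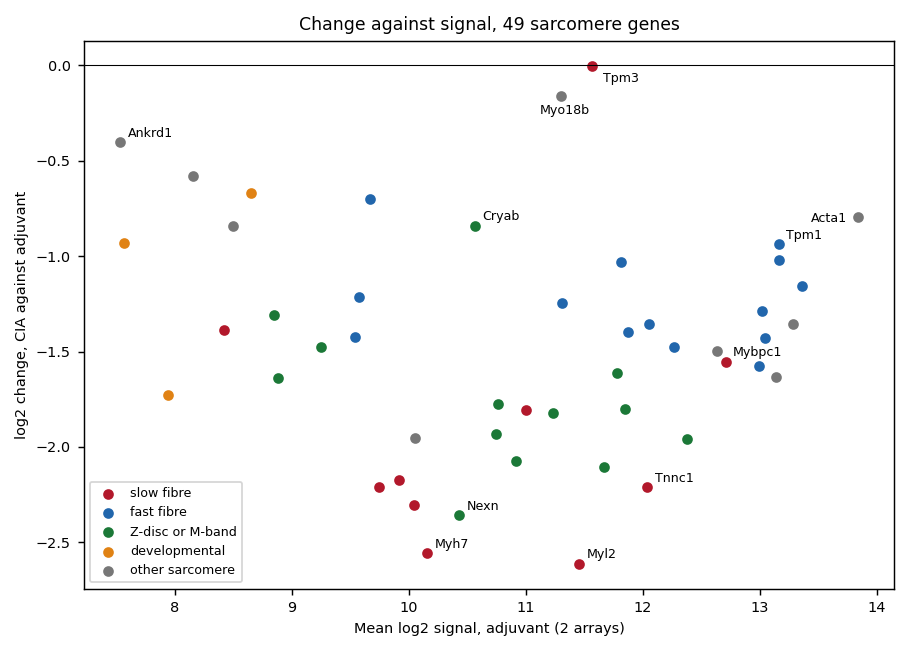
Log2 change in CIA against adjuvant of the 49 genes against their mean log2 signal on the 2 adjuvant arrays, coloured by class. Slow genes lie below fast genes at signals of 9 to 11, and Tpm3 and Myo18b stand near 0 at the top.

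No sarcomere gene passed when MLIF was given without collagen. In adjuvant+MLIF against adjuvant limma called 0 of 49, beside 0% of all probe sets. At an unadjusted p under 0.05, 2 of 49 and 1107 of 28944 differed. The 2 were Mybph, with 9.08 and 9.05 in adjuvant+MLIF and 8.41 and 8.58 in adjuvant (log2 change 0.57), and Ankrd2, with 8.64 and 8.66 in adjuvant+MLIF and 8.18 and 8.14 in adjuvant (0.49), both at an adjusted p of 0.588. They are named for their values. In both the arrays of the groups were apart, and 2 of the 49 genes passed without either CIA array, beside 1.83% of all probe sets. Among the slow genes Tnnc1 (0.52) and Myoz2 (0.50) had the largest differences, and the median over the slow genes was 0.10.

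In CIA+MLIF against adjuvant+MLIF, limma called 0 of 49 genes, beside 0.729% of probe sets called, 0.712% higher and 0.0173% lower. The differences ran from -0.61 for Mybph to 0.31 for Xirp1, with a median of -0.09. At an unadjusted p under 0.05 only Mybph was lower, with 8.40 and 8.52 in CIA+MLIF and 9.08 and 9.05 in adjuvant+MLIF (adjusted p = 0.440), and 1 gene passed without either CIA array, beside 1.52% of all probe sets. Slow genes had a median difference of -0.21, and that of fast genes was -0.07. A p that misses the threshold does not show that these levels were equal.

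The change with MLIF differed between mice with and without collagen, tested as the interaction of both, that is, CIA+MLIF minus CIA less adjuvant+MLIF minus adjuvant. It was called higher for 36 of 49 genes and lower for none, beside 7.24% of all probe sets called, 5.62% higher and 1.62% lower. By class these were 8 of 10 slow, 10 of 14 fast, 12 of 13 Z-disc or M-band, 2 of 3 developmental and 4 of 9 other genes. The count fell to 22 without adjuvant replicate 2, without adjuvant+MLIF replicate 1 or 2, and with the close adjuvant+MLIF arrays averaged as 1 array, beside 3.63% to 3.88% of all probe sets. The interaction reached 2.49 for Myh7, 1.55 for Myh4 and -0.19 for Tpm3 (adjusted p = 0.663).

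Genes of other cell types also changed between the groups, in part in the opposite direction. The mean log2 signal of 6 epidermal genes was 10.78 and 10.89 in CIA+MLIF, 11.59 and 11.89 in CIA, 6.05 and 6.005 in adjuvant+MLIF and 5.95 and 5.90 in adjuvant. The epidermal genes were high in both collagen groups, where 6 of 6 lay above the control median on each array. On the arrays without collagen only 1 or 2 of 6 lay above it. Whether the mix of tissues differed between the groups was not tested. Of the 6 epidermal genes, 6 were higher in CIA than in adjuvant (median log2 change 5.67), beside 4.3% of all probe sets. In CIA+MLIF 4 were lower than in CIA (median -1.02), beside 3.25%. In each comparison these genes went in the opposite direction to the sarcomere genes. Their part in the sarcomere results was not tested. The mean of 5 neutrophil genes was 7.76 and 7.92 in CIA+MLIF, 9.83 and 10.00 in CIA, 8.42 and 8.42 in adjuvant+MLIF and 7.46 and 7.73 in adjuvant, highest in CIA. The part of the following cell types was not tested either. Their counts stand beside 14.2% of all probe sets called lower in CIA against adjuvant and 11.5% called higher in CIA+MLIF against CIA. Of the 8 smooth muscle genes 3 fell in CIA against adjuvant (median -0.49) and 0 changed in CIA+MLIF against CIA (limma; 1 at an unadjusted p under 0.05, median 0.26). All 4 adipocyte genes fell in CIA against adjuvant (median -1.23) and 2 rose in CIA+MLIF against CIA. Of 6 heart muscle genes 2 fell in CIA, Myh6 by 1.02 and Tnnt2 by 0.89, and the same 2 rose with MLIF, while the atrial light chain Myl7 lay below the control median of each array.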

How the data were processed

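Per the labels, 300 ng of paw RNA was labelled with biotin for the arrays. The deposited values are log2 signals, 1 for each probe set and array, as read from their range of 2.18 to 14.90. The sources used here do not give the software, background correction or normalization behind them. Of 35557 entries, 6613 without gene annotation were taken as array controls and left out, and 28944 were tested with no filter on signal. The platform annotation gave 21789 probe sets 1 symbol, 1621 several and 5534 none, and all 49 symbols were found in RefSeq.

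One limma fit (3.58.1, R 4.3.3) of 4 group means to all 8 arrays gave the 5 comparisons, with 4 residual and 4.96 prior degrees of freedom. Moderated two-sided p-values received a Benjamini-Hochberg adjustment across the 28944 probe sets, with a threshold of 0.05. The fit was tested on simulated data. Values on every array are given for 9 slow and fast partner pairs, the 3 developmental genes and the 6 largest passing changes of CIA against adjuvant and of CIA+MLIF against CIA. Mybph, Ankrd1, Ankrd2, Myo18b and 1 probe set of Tpm3 were added after their values were seen. Other genes are given by class. The 14 reference muscle genes (13 measured), the lists of other sarcomere, slow and fast calcium and metabolic, smooth muscle, heart, epidermal, neutrophil and adipocyte genes, and the members were chosen with earlier results of these data known. Motif matches were counted in RefSeq promoter sequences (GRCm38.p6). Python 3.11.15 and Matplotlib 3.10.9 drew the figures.

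The alternatives were arrays centred or quantile normalized, the dimmest tercile of probe sets removed, a trended robust variance, array weights, a fit to the compared groups alone, the replicate number as a block, genes averaged over their probe sets, probe sets with 1 symbol alone, and each array omitted in turn. Added on seeing the data were a single averaged adjuvant+MLIF array, a crossed pairing, class means in place of medians and another probe set for Myo18b and Tpm3.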

Additional observations from a re-analysis of the deposited data

Results flagged for a closer look

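The effect of MLIF differed between mice with and without collagen, by the test of the interaction, for 36 of 49 sarcomere genes, beside 7.24% of all probe sets. The count was 22 without adjuvant replicate 2, without either adjuvant+MLIF array, or with these arrays averaged as 1. Among the partner genes the interaction on the log2 scale was 2.49 for Myh7, 2.24 for Myl2, 1.31 for Myl3, 1.93 for Tnni1, 1.57 for Tnnt1, 1.50 for Mybpc1 and 1.88 for Myoz2 of the slow fibre. It was 1.55 for Myh4, 1.25 for Myl1, 1.23 for Tnni2, 0.86 for Tpm1 and 1.18 for Myoz1 of the fast fibre. A positive interaction means by definition that the difference of CIA+MLIF from CIA exceeded that of adjuvant+MLIF from adjuvant. In each of these 12 genes the difference of CIA+MLIF from CIA was itself positive. The interaction uses the same CIA arrays as the comparisons above, so a low CIA value raises it. The other 6 partner genes did not pass: Tnnc1 (1.63, adjusted p = 0.0612), Tnnc2 (1.05, 0.152), Tnnt3 (0.86, 0.0626), Mylpf (0.88, 0.203), Mybpc2 (0.65, 0.166) and Tpm3 (-0.19, 0.663). No reason for the difference was tested.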

How the results depend on the processing

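The number of sarcomere genes called lower in CIA against adjuvant lay between 38 and 48 under all alternatives (38 to 47 when each array was left out), with none called higher, and the number higher in CIA+MLIF against CIA between 33 and 47 (34 to 47). The share of all probe sets called moved far more, from 6.86% and 4.36% with array weights (38 and 33 genes) to 61.2% and 60.0% without CIA replicate 2 (47 genes in each). Relative to the muscle reference the counts lay between 24 and 33 (24 to 32 and 26 to 32 without 1 array). In adjuvant+MLIF against adjuvant, 1 gene passed after quantile normalization (beside 1.26% of all probe sets), 3 with array weights (4.98%), 2 with only the groups compared (2.34%) and 0 to 2 when each array was left out (0% to 1.83%). In CIA+MLIF against adjuvant+MLIF, 1 passed after quantile normalization (1.43%), 1 with centred arrays (1.17%), 1 with array weights (2.28%) and 0 to 1 without 1 array (0.442% to 1.52%). The interaction count was 22 with the adjuvant+MLIF arrays averaged as 1 (beside 3.63% of all probe sets) and 22 to 44 without 1 array, where the 44, without CIA replicate 2, stood beside 45.1%. The slow minus fast median change lay between -1.13 and -0.61 in CIA against adjuvant and between 0.69 and 1.15 in CIA+MLIF against CIA without 1 array, and was 0.92 for CIA+MLIF against CIA after quantile normalization. With class means in place of medians it was -0.65 and 0.65, an alternative chosen after seeing the data. Tpm3 in CIA+MLIF against CIA turned to 1.46 with its probe set of lowest adjusted p and was 0.47 (adjusted p = 0.0619) with the mean of its probe sets, by which CIA fell by 0.60 against adjuvant (adjusted p = 0.0219). Of 950 alternative values for 25 named genes, 892 kept their direction and side of the threshold, 44 no longer passed and 6 newly passed. A further 7 changed direction without passing and 1 reversed and passed, all of them for Tpm3. The cause of these shifts was not tested.

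Replicate differences were correlated between CIA+MLIF and adjuvant (0.39), while the correlations between other groups ran from -0.11 to 0.005. Of the sarcomere genes, 44 in CIA+MLIF, 46 in CIA, 39 in adjuvant and 26 in adjuvant+MLIF were lower on replicate 1. Their median differences were -0.21, -0.30, -0.10 and -0.003. In CIA the median over all probe sets was also low (-0.39). These values do not settle whether replicate numbers pair the arrays. With the replicate number as a block, 46 sarcomere genes were called in CIA against adjuvant (beside 18% of all probe sets) and 45 in CIA+MLIF against CIA (14%). The interaction was called for 37 (6.99%), and 0 passed in each of the other comparisons (0% to 0.691%). The slow minus fast median changes were -0.93 and 1.02 with the block, and 30 and 28 genes passed relative to the reference. With CIA numbers crossed, 45 genes passed in CIA+MLIF against CIA.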

Other observations

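Sarcomere genes outside the 49, from a list of 28 of which 27 were measured, moved the same way. In CIA against adjuvant 23 fell (median log2 change -1.28), beside 14.2% of all probe sets called lower. In CIA+MLIF against CIA 21 rose (median 1.32), beside 11.5% called higher. Tmod1, which caps the pointed end of thin filaments, read 10.37 and 10.46 in CIA+MLIF, 8.27 and 8.71 in CIA, 10.37 and 10.33 in adjuvant+MLIF and 10.78 and 10.50 in adjuvant. It fell by 2.15 in CIA (adjusted p = 7.06e-05). Lmod2 and Lmod3, which lengthen thin filaments, changed by -1.76 and -1.57. The muscle ubiquitin ligase Trim63 is known to rise in several forms of muscle wasting. It read 8.45 and 8.52 in CIA+MLIF, 7.22 and 7.12 in CIA, 8.40 and 8.34 in adjuvant+MLIF and 8.38 and 8.36 in adjuvant. This was a fall of 1.20 in CIA against adjuvant (adjusted p = 4.55e-04). Relative to the muscle reference, which fell as well, Trim63 did not pass there (0.25, limma adjusted p = 0.151). Bag3, Pdlim7, Obsl1 and Mybpc3 did not pass in CIA against adjuvant (-0.31, -0.14, -0.36 and -0.32).

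Of the calcium and metabolic genes of fast fibres, 5 of 5 fell in CIA (median -1.001) and rose with MLIF (median 0.97), among them Atp2a1, the fast calcium pump (-0.81), and Pvalb, a calcium buffer (-0.72). Of all probe sets, 14.2% were called lower in CIA against adjuvant and 11.5% higher in CIA+MLIF against CIA. Of the 3 genes of slow fibres, the calcium store protein Casq2 (-1.19) and the fatty acid carrier Fabp3 (-1.69) fell. Casq2 in CIA (5.86 and 6.21) lay below the control medians of those arrays (5.88 and 6.44), which leaves the size of its fall uncertain. Relative to the muscle reference, 0 of these 3 fell in CIA and 1 rose. Of the 5 fast genes 0 fell and 3 rose relative to it, beside 93.4% of all probe sets called higher. Atp2a2, the slow pump that many other cells also make, read 10.90 and 10.98 in CIA+MLIF, 10.88 and 11.004 in CIA, 10.83 and 10.87 in adjuvant+MLIF and 10.71 and 10.77 in adjuvant, and did not pass (0.20, adjusted p = 0.322).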
